A study of Mus musculus with 21 samples.

Results

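The PYHIN genes encode interferon-inducible proteins, and 8 of them are described here across CD31-positive cells sorted from mouse mammary tumours: Pydc4, Pydc3, Pyhin1, Ifi203, Ifi204, Mnda, Mndal and Aim2. They are the rows of the deposited expression table that carry these symbols, 8 of 45706 genes. All 8 passed the filter of at least 1 TPM in at least 10 of the 21 libraries, which 13503 genes passed. TPM is a read count divided by transcript length and scaled to the same sum in every library. The family was picked because the level of Pydc4 was higher in the knockout in each of the 4 experiments. Differences of the members between knockout and wild type are therefore given as a description, with no p-value, and counts of genes past a threshold on that contrast are given as background only. The test reported for the members is of differences between experiments, which the choice did not use.

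A PYHIN protein typically joins an N-terminal pyrin domain, which binds other pyrin domains, to a C-terminal HIN domain, which binds DNA. Aim2 is the member whose mechanism is best known: on binding DNA in the cytosol it gathers the adaptor Pycard and caspase-1 into an inflammasome, which matures interleukin-1 beta and can end in pyroptosis. Ifi204 has been described in the mouse as a DNA sensor that signals through STING, and its human relative is IFI16. Most of the family lie side by side in 1 cluster, which differs in gene number between mammals, and many of the genes are induced by interferons. Type I interferon acts through the receptor chains Ifnar1 and Ifnar2 and the kinases Jak1 and Tyk2, and switches on genes that carry the interferon-stimulated response element. In vessels this response is known for its antiviral role and for restraining endothelial growth.

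The cells came from E0771.lmb tumours, a mouse mammary carcinoma line, grown in adult wild-type (WT) mice and in adult Shb iECKO mice (KO), which carry Shb flox/flox with Cdh5-CreERt2. Shb is an adaptor protein of tyrosine kinase receptors, and in this model a Cre recombinase driven by the endothelial Cdh5 promoter and activated by tamoxifen removes it. The protocol describes tamoxifen injection before the tumours of both genotypes, sacrifice on day 14 to 16, and an isolation of CD45-positive cells on magnetic beads that came before sorting on CD31. It also names Shb ICKO mice with Vav1-cre, a blood-cell line to which the labels assign no sample, and it does not say whether the WT mice carry a floxed allele or Cre. There were 11 WT libraries from 9 tumours and 10 KO libraries from 8 tumours, in 4 experiments that held 3, 3, 2 and 3 WT and 2, 4, 2 and 2 KO libraries. The labels do not say which libraries share a tumour, so the spread between libraries may be in part that within a tumour.

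Some facts of the libraries touch every result below. Shb itself averaged 37.3 ± 18.1 TPM over the 11 WT libraries and 22.8 ± 16.6 TPM over the 10 KO libraries (± SD), with overlapping ranges (17.2 to 74.3 and 6.00 to 52.7 TPM). The endothelial marker Pecam1, which encodes CD31, ran from 95.04 to 1960 TPM. The 3 libraries lowest in Pecam1 were WT replicate 2 of experiment 4 (95.04 TPM), KO replicate 2 of experiment 4 (242 TPM) and WT replicate 1 of experiment 2 (461 TPM). WT replicate 2 of experiment 3 had the highest mean of 8 pan-leukocyte markers. A pair of KO columns share the header of replicate 3 of experiment 2 and are called 3a and 3b; column 3b carries 6 decimals, like the columns of experiment 4, and 3a carries 2, like those of experiments 1 to 3. Both are placed in experiment 2 as their header says. These are bulk samples, in which fewer cells of a type and less RNA per cell cannot be told apart.

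The 8 genes lie on chromosome 1 of GRCm38 between positions 173350879 and 173942672, a span of 591794 bases, 3 on the plus and 5 on the minus strand. Current annotation names Pydc4 as Ifi213, Pydc3 as Ifi208, Pyhin1 as Ifi209 and Mnda as Ifi211. Aim2 stands at the low end, at chr1:173350879-173466040 on the plus strand. Pydc4 (chr1:173566283-173599274, minus strand), Pyhin1 (chr1:173630917-173647928, plus strand) and Pydc3 (chr1:173673675-173698395, plus strand) follow. Ifi204 lies at chr1:173747293-173766943 on the minus strand. The annotated span of Mndal, chr1:173849126-173942491, encloses Mnda at chr1:173896345-173913046 and most of Ifi203 at chr1:173920407-173942672, all on the minus strand. Exons of Ifi203 and Mndal share only 37 bases, 1.02% of the exon length of Mndal.

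The promoters of the members were compared with each other and searched for the element described above. Windows of 300 bases, from 250 before to 50 after an annotated start, were taken from RefSeq (build GRCm38.p6) and found for 7 members. The letters GAAA, any 2 bases and GAAA, the core of the interferon-stimulated response element, were searched on both strands. They were found in windows of 5 of the 7 members: Pydc4, Pydc3, Ifi203, Mnda and Mndal. The core was held by 3.44% of all 32851 windows given for mouse genes, and counted by gene, by windows of 3.99% of 27025 genes. Below is the whole Pydc4 window (chr1:173599223-173599522, minus strand), shown because this is the gene the family was picked for. Stretches of 60 bases around the core follow, shown because Pydc4 with Pydc3 and Ifi203 with Mndal form identical pairs. Capitals mark the core, or in Pyhin1 the bases aligned with it.
Pydc4 promoter: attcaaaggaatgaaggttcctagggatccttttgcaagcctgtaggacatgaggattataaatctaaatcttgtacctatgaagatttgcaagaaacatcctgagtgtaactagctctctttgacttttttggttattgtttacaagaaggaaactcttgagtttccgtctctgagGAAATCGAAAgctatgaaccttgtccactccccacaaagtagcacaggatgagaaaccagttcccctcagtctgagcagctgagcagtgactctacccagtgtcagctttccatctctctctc
Pydc4, 60 bases: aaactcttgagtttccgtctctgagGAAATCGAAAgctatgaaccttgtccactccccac
Pydc3, 60 bases: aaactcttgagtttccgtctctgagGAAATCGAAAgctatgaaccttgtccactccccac
Pyhin1, 60 bases: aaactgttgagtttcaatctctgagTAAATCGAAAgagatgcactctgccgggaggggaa
Ifi203, 60 bases: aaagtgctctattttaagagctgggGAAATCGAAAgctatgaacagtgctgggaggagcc
Mndal, 60 bases: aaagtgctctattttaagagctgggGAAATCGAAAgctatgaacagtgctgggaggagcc
Mnda, 60 bases: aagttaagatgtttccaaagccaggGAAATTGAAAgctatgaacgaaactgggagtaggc

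These stretches lie at chr1:173599311-173599370 (Pydc4, minus strand), chr1:173673582-173673641 (Pydc3, plus strand), chr1:173630755-173630814 (Pyhin1, plus strand), chr1:173942493-173942552 (Ifi203, minus strand), chr1:173880189-173880248 (Mndal, minus strand) and chr1:173913049-173913108 (Mnda, minus strand). Pydc4 and Pydc3, which lie on opposite strands, are identical at 60 of 60 bases. Ifi203 and Mndal are likewise identical to each other at 60 of 60 bases, and match the Pydc4 stretch at 34. Mnda matches it at 30 bases, and its core differs from that of Pydc4 by C6T, counted from 1 at the 5′ end of the core. Pyhin1 matches the Pydc4 stretch at 41 of 60 bases, best of all ungapped positions in its window, and the aligned core differs by G1T, so that the searched letters are not in it. The best match of the Pydc4 stretch reached 41 bases in 5 of the 32851 windows, and all 5 belong to genes of this cluster: the 3 members Pydc4, Pydc3 and Pyhin1, and Gm4955 and BC094916. Pydc4 and Pyhin1 are among the 5 by construction, as the stretch is that of Pydc4 and the limit of 41 is the match of Pyhin1. In Aim2 the best match was 26 bases, against a median of 25 over all windows.

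The core began 73 bases before the start in Pydc4, 58 in Pydc3, 37 in Mnda and 36 in Mndal. In Ifi203 it began 35 bases before the second of its annotated starts, and the window of the first start holds none. The window of a second Mndal start holds another match, on the opposite strand 54 bases before that start. No match was found in the windows of Pyhin1 and Aim2. The Aim2 window, chr1:173420354-173420653, lies inside the annotated span of the gene given above, not at its low end. Likewise the Mndal windows, chr1:173880138-173880437 and chr1:173879909-173880208, lie inside the span of Mndal, not at its high end. The starts used for the windows thus differ from the ends of these spans. The letters TTC, any 3 bases and GAA belong to the gamma-activated site, an element of the interferon-gamma response. These were found in none of the 7 members, in 8.30% of all windows and in windows of 9.55% of all genes. Outside the 8 genes, 4 of 5 cluster genes with a window hold the response element core. A match of letters is a description of the sequence only.

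**Figure D1:**
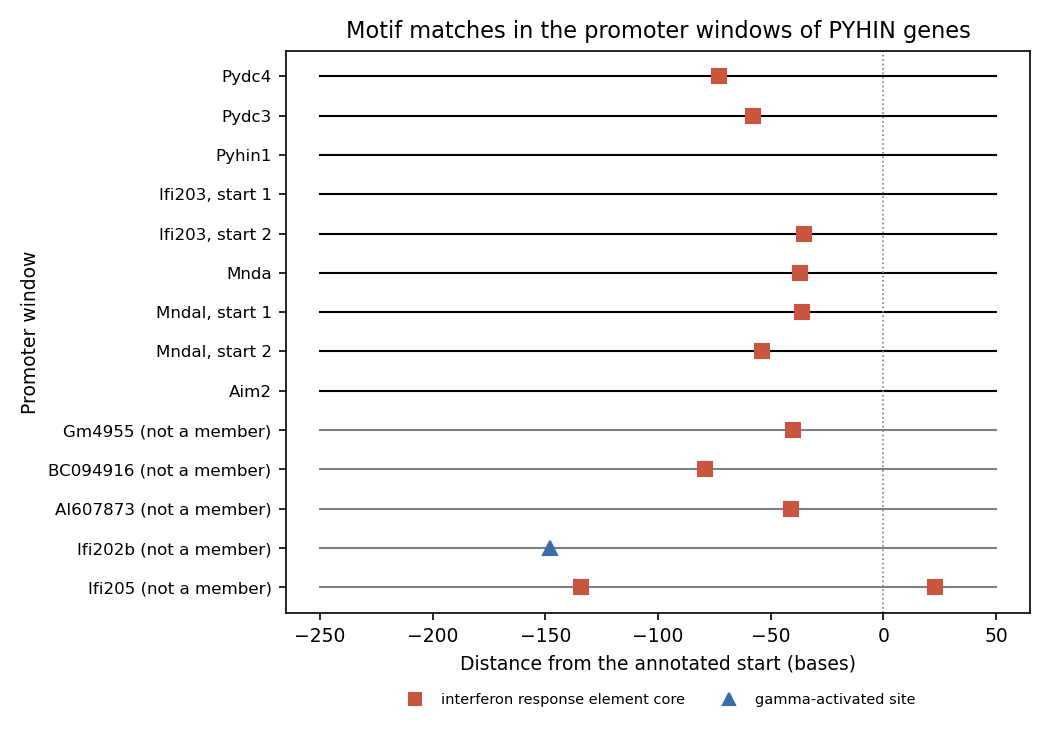
Position of motif matches in promoter windows, with the distance from the annotated start in bases on the horizontal axis and 1 line per window (black for the 8 genes described, grey for other genes of the cluster). Squares mark the interferon response element core (GAAA, any 2 bases, GAAA) and triangles the gamma-activated site; the core stands between 35 and 73 bases before the start in 5 of the 7 members that have a window, and no square stands in the windows of Pyhin1 and Aim2.

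Sequence shared between family members also limits which gene a read can be assigned to. Of all stretches of 150 bases, the length of 1 read, in the Mnda transcripts, 46.4% also occur in transcripts of another gene, 32.3% in those of Ifi205 and 14.1% in those of Ifi204. The share was 9.28% for Pyhin1, all with Ifi214 (BC094916), and 6.77% for Ifi204, all with Mnda. It was 1.61% for Mndal, 1.5% for Pydc3, 0.827% for Ifi203, 0.223% for Pydc4 and 0 for Aim2. The levels of Mnda, and to a lesser degree Pyhin1 and Ifi204, are therefore uncertain, since the authors' rule for reads that fit several genes is not given in the sources used here.

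To compare the members with each other, their levels per length were set side by side in the WT libraries. Mndal had the highest median, 159 TPM (range 34.6 to 238), followed by Ifi203 at 126 TPM (20.6 to 224). Ifi204 had a median of 71.5 TPM (34.2 to 167), Pydc4 61.3 TPM (35.2 to 121) and Mnda 44.1 TPM (14.5 to 151). Aim2 at 19.0 TPM (0 to 44.0), Pydc3 at 13.5 TPM (4.03 to 27.7) and Pyhin1 at 7.94 TPM (0 to 49.1) were the lowest. The ranges of all neighbours in this order overlapped. Within a library the order was firmer for some pairs than for others: Mndal stood above Ifi203 in 10 of 11 WT libraries, and Ifi203 above Ifi204, Mnda above Aim2 and Pydc3 above Pyhin1 in 9 each. Ifi204 stood above Pydc4 in 5 of 11 and Aim2 above Pydc3 in 5 of 11, so these pairs had no set order. Aim2 was listed at 0 in WT replicate 3 of experiment 1 and Pyhin1 in WT replicate 2 of that experiment.

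**Figure D2:**
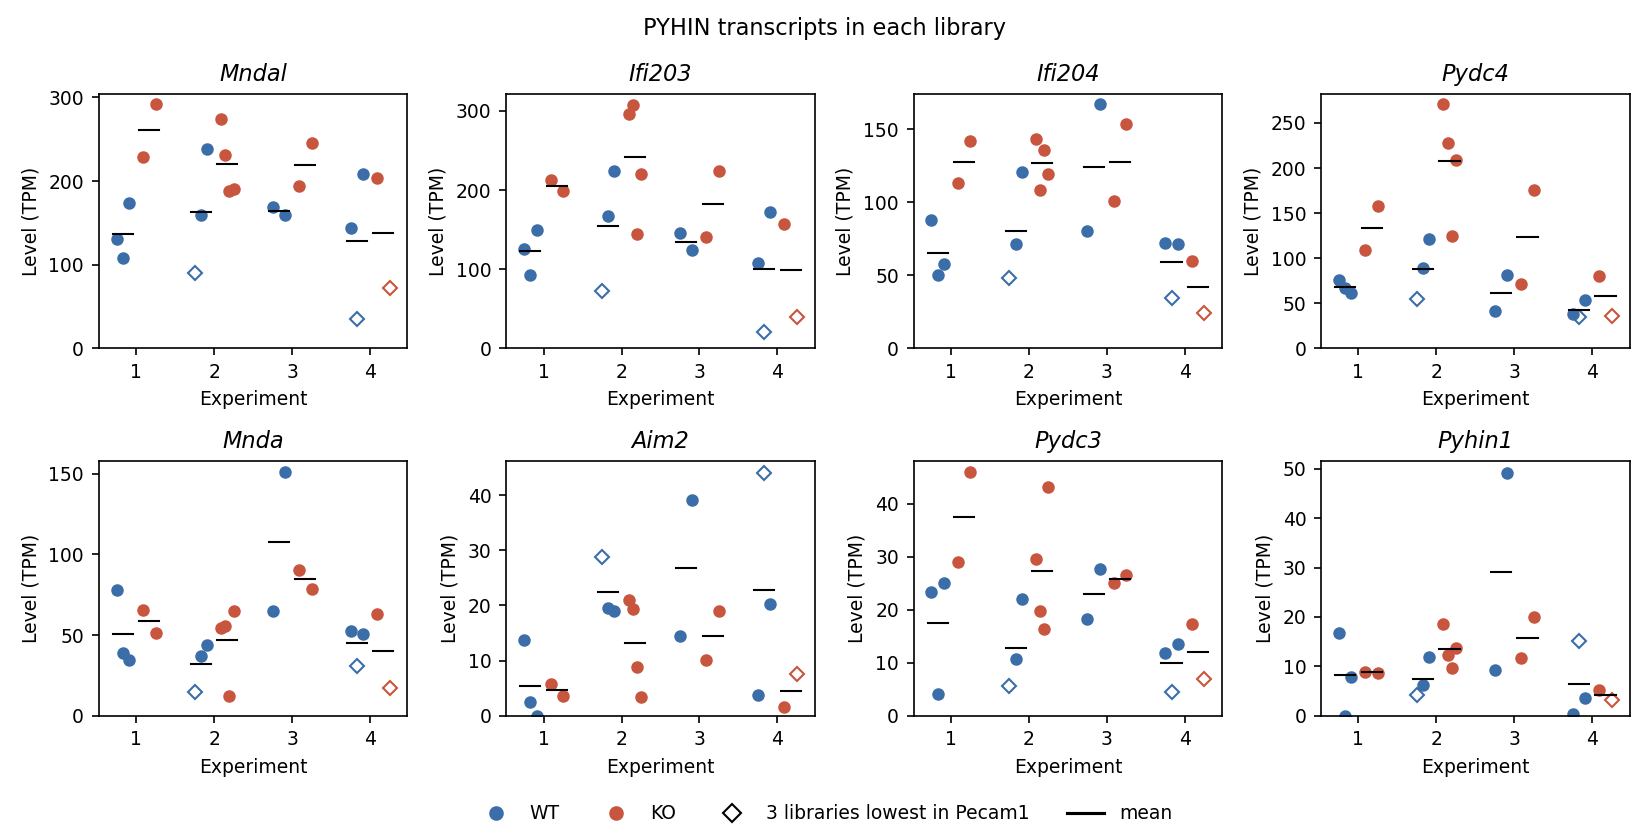
Level in TPM (linear axis from 0, scaled separately for each gene) of the 8 genes in each of 21 libraries, by experiment, with WT in blue and KO in red; the black line is the mean of an experiment and genotype, and open diamonds are the 3 libraries lowest in Pecam1. Pydc4 in experiments 1 and 2 shows all KO libraries above all WT libraries, Ifi203 and Mndal are lowest in the open diamonds, and Aim2 is highest in an open diamond, WT replicate 2 of experiment 4 at 44.0 TPM.

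Pydc4, a mouse protein named for its pyrin domain, had the largest fitted difference of the family. In experiment 1 it stood at 109 and 158 TPM in KO and at 75.3, 66.5 and 61.3 TPM in WT. In experiment 2 the KO libraries held 271, 228, 124 (column 3a) and 209 TPM (column 3b), and the WT libraries 55.0, 89.1 and 121 TPM. All KO libraries were above all WT libraries in these 2 experiments, in experiment 2 by a narrow margin between 124 and 121 TPM. In experiment 3 the KO libraries held 71.5 and 176 TPM and the WT libraries 41.8 and 81.0 TPM. In experiment 4 the KO libraries held 80.8 and 35.5 TPM, and the WT libraries 37.6, 35.2 and 53.8 TPM. In both of these experiments 1 KO library lay above all WT libraries and 1 among them.

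Over all libraries Pydc4 averaged 146 ± 75.4 TPM over the 10 KO libraries and 65.3 ± 25.5 TPM over the 11 WT libraries (± SD). The fitted difference, on the log2(TPM + 1) scale with a term for experiment, was 0.91 (standard error 0.23, 95% interval 0.42 to 1.39), a ratio of 1.88. By experiment the difference of log2 means was 0.95, 1.24, 0.94 and 0.36. With column 3b placed in experiment 4 the last was 1.01 and that of experiment 2 was 1.22. Over all genes tested a positive difference in every experiment occurred in 3.49%. Since the gene was picked for this pattern, nothing is read from that share.

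Pydc3, whose 60-base promoter stretch equals that of Pydc4, had the second largest difference at a lower level. It averaged 26.0 ± 12.0 TPM over the 10 KO libraries and 15.2 ± 8.61 TPM over the 11 WT libraries (± SD), a fitted difference of 0.79 (standard error 0.33). The KO libraries of experiment 1 held 29.0 and 46.0 TPM, above WT at 23.4, 4.03 and 25.1 TPM. In experiment 2 the KO values of 29.6, 19.8, 16.5 and 43.2 TPM overlapped those of WT at 5.6, 10.7 and 22.1 TPM. The KO values of experiment 3 (25.2 and 26.6 TPM) lay between the WT values of 18.3 and 27.7 TPM. In experiment 4 KO stood at 17.3 and 6.90 TPM, and WT at 11.9, 4.56 and 13.5 TPM. By experiment the differences of log2 means were 1.35, 1.13, 0.19 and 0.25, and thus larger in experiments 1 and 2; with column 3b placed in experiment 4 they were 0.88 in experiment 2 and 0.87 in experiment 4.

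**Figure D3:**
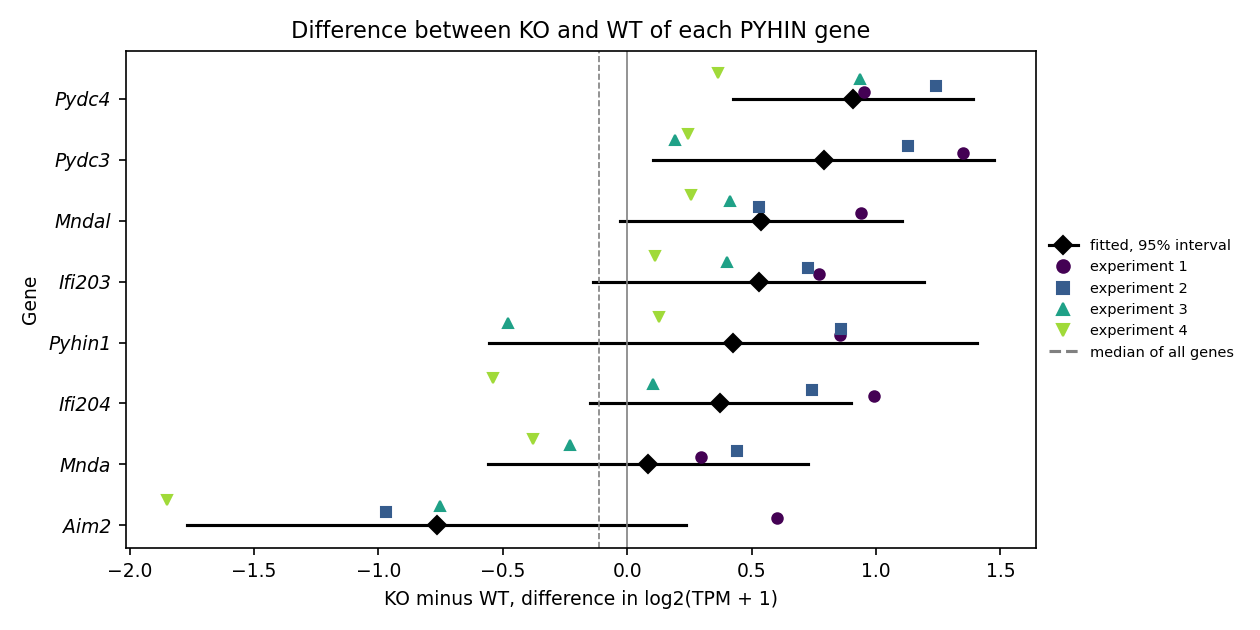
Difference between KO and WT in log2(TPM + 1) for each of the 8 genes: black diamonds with lines give the fitted value and its 95% interval, coloured symbols the difference of means within experiments 1 to 4, and the dashed line the median of all genes tested (-0.11). Pydc4 stands highest at 0.91, the 4 experiments of Pydc4, Pydc3, Mndal and Ifi203 are all above 0, and Aim2 is at -0.77 with experiment 1 alone above 0.

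Mndal and Ifi203, the most abundant members, carry HIN domains and lie next to each other at the high end of the cluster. Mndal averaged 212 ± 60.5 TPM over the 10 KO libraries and 147 ± 55.9 TPM over the 11 WT libraries (± SD). Its fitted difference was 0.54 (standard error 0.27). In experiment 1 KO held 229 and 292 TPM against 131, 107 and 173 TPM in WT, and in experiment 3 KO held 194 and 246 TPM against 169 and 159 TPM. The groups did not overlap in these 2 experiments. In experiment 2 KO held 274, 232, 188 and 190 TPM and WT 90.4, 160 and 238 TPM, and in experiment 4 KO held 204 and 72.4 TPM and WT 143, 34.6 and 209 TPM, so that the groups overlapped.

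Ifi203 averaged 194 ± 78.7 TPM over the 10 KO libraries and 128 ± 54.6 TPM over the 11 WT libraries (± SD), a fitted difference of 0.53 (standard error 0.32). The KO libraries of experiment 1 held 212 and 199 TPM, above WT at 126, 92.0 and 150 TPM. In experiment 2 KO held 297, 308, 144 and 220 TPM, and WT 72.9, 167 and 224 TPM. In experiment 3 the KO values were 141 and 224 TPM and the WT values 146 and 124 TPM. KO stood at 158 and 39.6 TPM in experiment 4, and WT at 108, 20.6 and 173 TPM. The lowest value of each genotype in experiment 4, and the lowest WT value of experiment 2, came from the 3 libraries lowest in Pecam1.

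Ifi204, described above as a DNA sensor, averaged 110 ± 40.5 TPM over the 10 KO libraries and 78.4 ± 37.4 TPM over the 11 WT libraries (± SD). Its fitted difference was 0.37 (standard error 0.25). The KO libraries of experiment 1 held 113 and 142 TPM, above WT at 87.9, 49.99 and 57.7 TPM, and the groups overlapped elsewhere. The difference of log2 means was 0.99, 0.74 and 0.10 in experiments 1 to 3 and -0.54 in experiment 4, where KO held 59.8 and 24.4 TPM and WT 72.3, 34.2 and 71.4 TPM. With column 3b placed in experiment 4 the difference there was -0.0027, and without KO replicate 2 of experiment 4 the fitted difference was 0.56. The highest WT value, 167 TPM, came from WT replicate 2 of experiment 3, the library highest in pan-leukocyte markers.

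Mnda averaged 55.4 ± 24.4 TPM over the 10 KO libraries and 54.4 ± 36.3 TPM over the 11 WT libraries (± SD), with a fitted difference of 0.08 (standard error 0.31). Its human relative, the myeloid cell nuclear differentiation antigen, is known from monocytes and granulocytes. KO and WT overlapped in all 4 experiments. The highest WT value, 151 TPM, again came from WT replicate 2 of experiment 3, and no other WT library exceeded 77.9 TPM. Pyhin1 averaged 11.2 ± 5.32 TPM over the 10 KO libraries and 11.3 ± 13.7 TPM over the 11 WT libraries (± SD), and overlapped in all experiments as well. Its WT value of 49.1 TPM in the same library stood far above the other WT libraries, which reached 16.8 TPM. On the log scale its fitted difference was 0.43 (standard error 0.47), beside means in TPM that were nearly the same. It depended on single libraries and on the pseudocount: it was 0.16 without WT replicate 2 of experiment 1, where the gene is listed at 0, 0.25 without WT replicate 1 of experiment 4, 0.65 without WT replicate 2 of experiment 3, and 0.79 with a pseudocount of 0.1.

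Aim2, the inflammasome receptor, was the only member with a negative fitted difference, -0.77 (standard error 0.48, 95% interval -1.77 to 0.24). It averaged 10.0 ± 7.23 TPM over the 10 KO libraries and 18.7 ± 14.3 TPM over the 11 WT libraries (± SD). In experiment 1 all libraries were low, with KO at 5.80 and 3.63 TPM and WT at 13.8, 2.42 and 0 TPM. In experiment 2 KO held 21.0, 19.3, 8.84 and 3.35 TPM and WT 28.8, 19.5 and 19.0 TPM. KO held 10.0 and 18.9 TPM in experiment 3, and WT 14.5 and 39.2 TPM. In experiment 4 KO held 1.52 and 7.52 TPM and WT 3.86, 44.0 and 20.3 TPM. The groups overlapped in every experiment. The highest values, 44.0 and 39.2 TPM, came from WT replicate 2 of experiment 4 and WT replicate 2 of experiment 3. These libraries had the 2 highest means of the pan-leukocyte markers. They also had the 2 highest levels of the tumour epithelial marker Krt8, at 8.08 and 6.90 in log2(TPM + 1). The part of other cells in the difference was not tested.

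Of the 8 genes 7 had a fitted difference above 0, against 36.0% of all genes tested, and the median of the members was 0.48, against -0.11 over all genes. None of the members was called between KO and WT at a limma adjusted p under 0.05; of all genes tested, 1 was (0.00741%), lower in KO, and 794 genes (5.88%) had an unadjusted p under 0.05. With libraries shifted to a common median, or after quantile normalization, the count was 1 member (Pydc4) among 2 genes; as the gene was picked on this contrast, neither count is an independent test of it. The share of all genes with every KO library above every WT library was 18.0% in experiment 1, 1.63% in experiment 2, 18.1% in experiment 3 and 1.61% in experiment 4. Among the members this was so for 5 in experiment 1 (Pydc4, Pydc3, Ifi203, Ifi204 and Mndal), for Pydc4 in experiment 2, for Mndal in experiment 3 and for none in experiment 4. No member had every KO library below every WT library, which was so for 3.35%, 4.91%, 11.8% and 19.1% of all genes in experiments 1 to 4. The family was chosen on this contrast, so these counts describe it and show nothing more.

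Differences between the experiments were tested, with genotype in the model. Pydc4 was the member that passed (limma moderated F test, adjusted p = 0.0153). Its level averaged 157 ± 79.7 TPM in experiment 2 (SD, n = 7), 94.1 ± 40.5 TPM in experiment 1 (SD, n = 5), 92.6 ± 58.1 TPM in experiment 3 (SD, n = 4) and 48.6 ± 19.6 TPM in experiment 4 (SD, n = 5). These means pool both genotypes, with KO making up 4 of 7 libraries in experiment 2; the WT means were 88.5 ± 33.1, 67.7 ± 7.09, 61.4 ± 27.7 and 42.2 ± 10.1 TPM in the same order (SD, n = 3, 3, 2 and 3). Of all genes tested 29.1% passed the same test, and 1 of 8 members did. The limma adjusted p was 0.0518 for Ifi204, 0.0574 for Aim2, 0.0756 for Mnda, 0.121 for Ifi203, 0.128 for Pyhin1, 0.203 for Pydc3 and 0.313 for Mndal. The Pydc4 call was lost with column 3b placed in experiment 4 (limma adjusted p = 0.0897), without experiment 2 (0.163), without experiment 4 (0.218) and in the WT libraries alone (0.386).

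To see which members vary together, the mean of each experiment and genotype was taken out of log2(TPM + 1), and Pearson's r of what remained was computed over the 21 libraries as a description. All points share the scaling of their library, since TPM sums to the same total in each. The median over the 28 pairs was 0.52, and 15 pairs exceeded 0.5. Ifi203 and Mndal, identical in the promoter stretch printed above, were the most alike at 0.97, and at 0.82 without the 3 libraries lowest in Pecam1. Pydc4 and Pydc3, identical as well in theirs, reached only 0.54, and 0.35 without those libraries. Over all libraries Pydc4 was closest to Ifi204 (0.75) and Mnda (0.73). Without those 3 libraries Pydc4 stood at 0.63 with Ifi203, 0.63 with Ifi204 and 0.57 with Mnda. Leaving them out moved Pyhin1 with Pydc3 from 0.46 to 0.80, and Pyhin1 with Ifi204 from 0.27 to 0.70. Aim2 had negative values with Mndal (-0.40), Ifi203 (-0.34) and Pydc3 (-0.30), and without those 3 libraries the values were 0.15, 0.28 and -0.06. Ifi203 with Ifi204 went from 0.72 to 0.16 when they were left out. With every library shifted to a common median the median over pairs was 0.34.

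**Figure D4:**
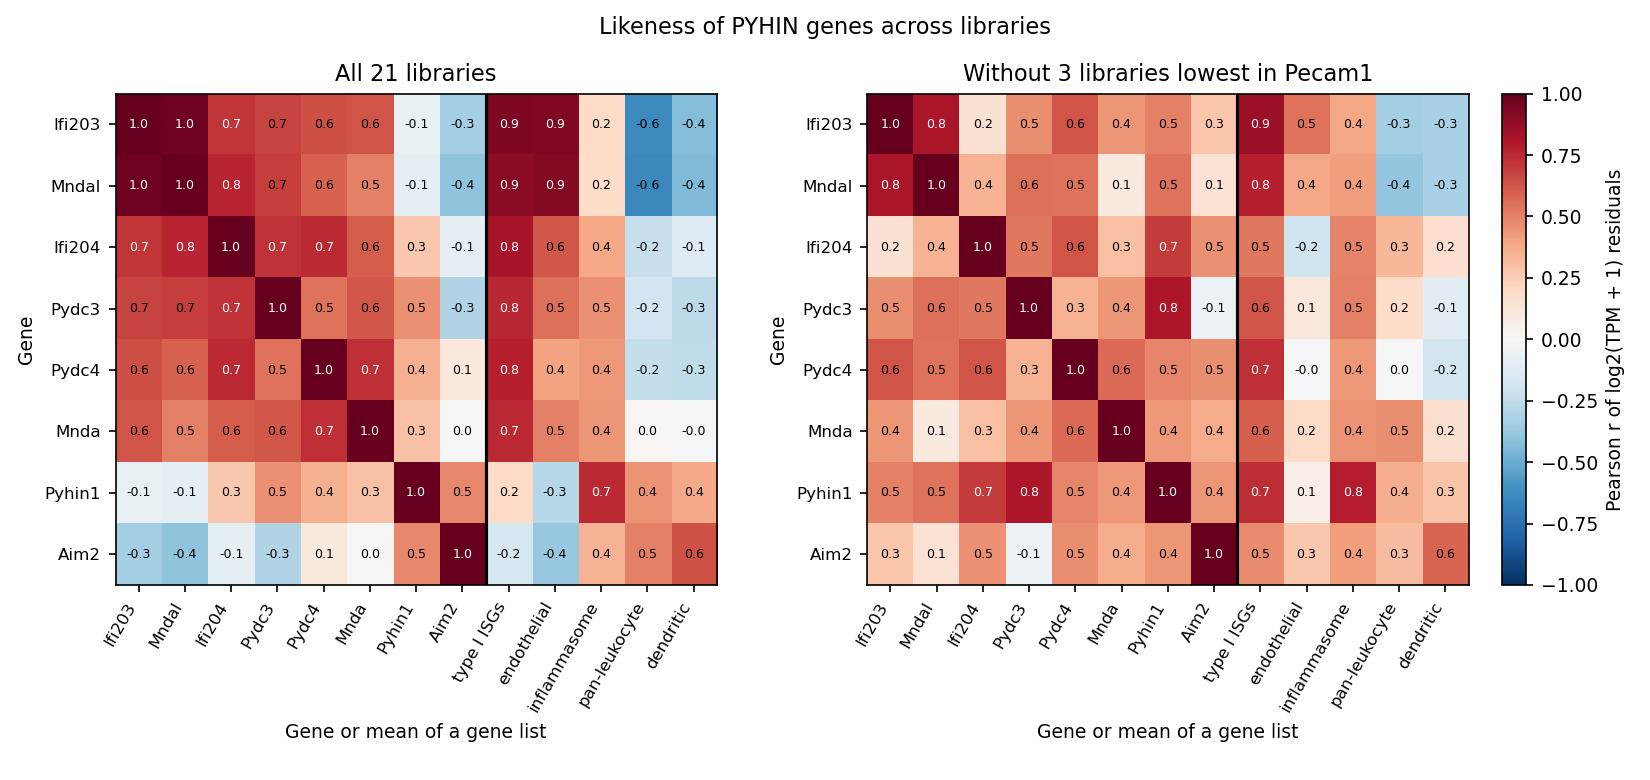
Pearson r between residuals of log2(TPM + 1), after removing the mean of each experiment and genotype, for pairs of the 8 genes and, right of the black line, between each gene and the mean of a gene list; the left panel has all 21 libraries and the right panel leaves out the 3 lowest in Pecam1; the dendritic list rests on 2 genes. Ifi203 and Mndal form the darkest pair (0.97 and 0.82), and the blue cells of Aim2 with Ifi203 and Mndal on the left (-0.34 and -0.40) are not blue on the right (0.28 and 0.15).

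Among 10462 genes outside the family, those most like Pydc4 in the same residuals, among genes with a mean log2(TPM + 1) of at least 2, were Fndc3a (r = 0.90), Eif4g3, a scaffold of translation initiation (0.90), Slmap (0.88), Hcfc1, a transcriptional co-regulator (0.88), Ascc2 (0.88) and Sec31a, a coat protein of vesicles leaving the endoplasmic reticulum (0.87). Ifi204 was most like Upp1, a uridine phosphorylase (0.90), Zbp1, a sensor of Z-form nucleic acids (0.90), Skap2 (0.89), Trim30d (0.88), Crcp (0.87) and Chmp4b, a subunit of the membrane-cutting ESCRT machinery (0.87). With libraries shifted to a common median, the r of the first gene of each list was 0.82 for Fndc3a and 0.84 for Upp1.

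The members differed in how they varied with endothelial markers, whose mean was taken over 12 genes such as Egfl7 and Pecam1. Ifi203 (r = 0.93) and Mndal (0.92) followed them across all 21 libraries, and 0.55 and 0.39 remained without the 3 libraries lowest in Pecam1. For Ifi204 the value was 0.62 and for Pydc4 0.40, and without those libraries they were -0.20 and -0.01. Aim2 (-0.38) and Pyhin1 (-0.29) had negative values, and 0.27 and 0.07 without those libraries. With the mean of 8 pan-leukocyte markers, among them Lcp1 and Arhgdib, the r was 0.50 for Aim2, 0.45 for Pyhin1, -0.24 for Pydc4, -0.63 for Ifi203 and -0.65 for Mndal. Without the 3 libraries lowest in Pecam1 these were 0.31, 0.36, 0.01, -0.34 and -0.39. Without WT replicate 2 of experiment 3, the library highest in these markers, they were 0.47, 0.32, -0.56, -0.73 and -0.77. Aim2 and Pyhin1 stood on the other side of 0 from Ifi203 and Mndal in all 3 cases, while the value of Pydc4 rested on the libraries included.

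**Figure D5:**
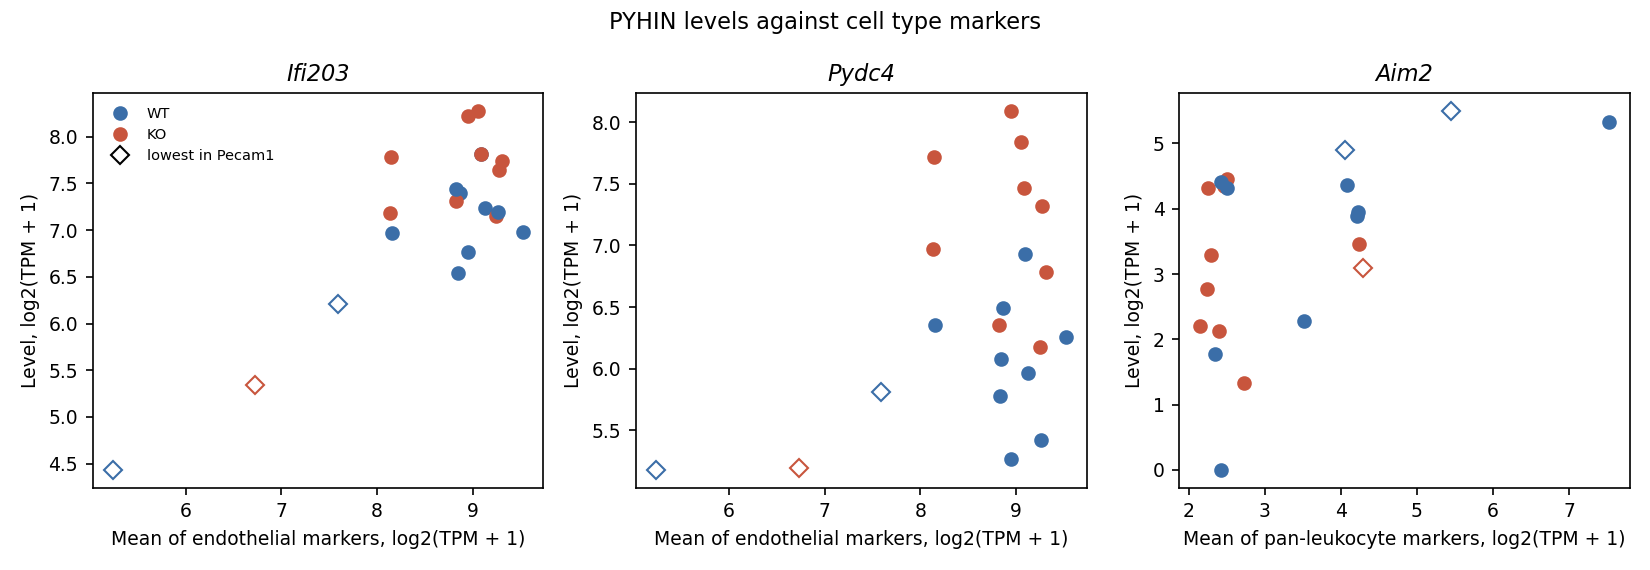
Level of Ifi203 and Pydc4 against the mean of 12 endothelial markers, and of Aim2 against the mean of 8 pan-leukocyte markers, all in log2(TPM + 1), 1 point per library with WT in blue and KO in red; open diamonds are the 3 libraries lowest in Pecam1. Ifi203 is lowest in the open diamonds, KO libraries of Pydc4 reach higher than WT at like marker levels, and the 2 WT libraries at the right of the Aim2 panel hold its highest levels.

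Marker levels of other cells are given here beside the differences above, and no marker of any list was called between KO and WT. The 8 pan-leukocyte markers all had fitted differences below 0 (median -1.28), as did all 12 macrophage and monocyte markers (median -1.39; Cd68 -0.71 and Lyz2 -2.53). The same was seen of the 6 fibroblast markers tested (median -1.13; Col3a1 -1.62 and Col1a1 -1.46) and the 5 pericyte and smooth muscle markers tested (median -1.04; Rgs5 -1.29 and Tagln -0.67). Few genes of the other lists could be tested: the T cell kinase Lck (-0.49), the neutrophil receptor Csf3r (-0.98), the tumour epithelial keratin Krt8 (-1.55), the dendritic cell genes Zbtb46 (0.33) and Itgax (-1.50), and none of 5 B cell markers. Krt8 was highest in WT replicate 2 of experiment 4, the library lowest in Pecam1, at 269 TPM. The other tumour epithelial markers were too low to be tested. Of these, Epcam averaged 1.78 TPM in KO and 0.25 in WT, Krt18 2.43 and 0.37, Krt19 2.89 and 0.82, and Krt7 0.34 and 0.13. Cdh1 averaged 0.54 TPM in KO and 2.05 in WT. The KO SDs of Epcam, Krt18 and Krt19, at 5.02, 7.48 and 8.79 TPM, were above their means. Summed levels of the pan-leukocyte markers ran from 116 to 1968 TPM in WT and from 90.2 to 269 TPM in KO, and those of the macrophage markers from 44.4 to 5240 and from 21.3 to 203 TPM. The sum of the 12 endothelial markers ran from 584 to 11930 TPM in WT and from 1674 to 11076 TPM in KO. None of the 5 B cell markers was at 0 in all libraries; Cd79a was at 0 in 5 (highest value 5.38 TPM) and Pax5 in 8 (1.7 TPM). Likewise none of the 5 neutrophil markers was at 0 throughout, with Csf3r at 0 in 8 libraries (highest value 29.3 TPM) and S100a8 in 15 (22.4 TPM). The T and NK cell gene Gzmb was at 0 in 10 libraries (highest value 7.67 TPM) and the epithelial gene Cdh1 in 11 (16.2 TPM). Cd3e of the T cell list was at 0 in 15 libraries, while Lck had a median of 14.7 TPM. Flt3 of the dendritic cell list was at 0 in 11, while Zbtb46 had a median of 53.1 TPM. Lck and Zbtb46 need therefore not follow the cells of their lists here. With the means of pan-leukocyte and fibroblast markers as covariates the fitted difference of Pydc4 was 0.73 and that of Pydc3 0.66. That of Ifi203 was 0.04 in place of 0.53, that of Mndal 0.15 in place of 0.54, that of Pyhin1 0.96 in place of 0.43, and that of Aim2 -0.39 in place of -0.77.

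The genes that respond to type I interferon give the pathway around the family. Of 35 such genes, all tested, 34 had a fitted difference above 0 and 1 below, none was called between KO and WT, and the median was 0.46, against -0.11 over all genes. By experiment 35, 32, 31 and 10 of the 35 were above 0, with medians of 0.85, 0.65, 0.42 and -0.19. In the same order 72.5%, 35.4%, 56.3% and 17.3% of all genes tested were above 0. The median in experiment 4 was below 0, and the medians over all genes tested were 0.30, -0.18, 0.08 and -0.56. With column 3b placed in experiment 4, 22 of the 35 were above 0 there, against 25.3% of all genes (medians 0.17 and -0.39). Among the most abundant, Sp100, a nuclear body protein, averaged 291 ± 117 TPM in KO and 195 ± 72.2 TPM in WT (SD, n = 10 and 11; difference 0.49). Oasl2 stood at 270 ± 135 and 164 ± 104 TPM (0.59) and Parp14 at 256 ± 118 and 168 ± 72.4 TPM (0.39). The mean of this list followed the members with r of 0.93 for Ifi203, 0.90 for Mndal, 0.82 for Ifi204, 0.77 for Pydc4, 0.76 for Pydc3 and 0.74 for Mnda. Over all libraries Pyhin1 (0.20) and Aim2 (-0.17) stood apart. Without the 3 libraries lowest in Pecam1 both were higher, at 0.74 and 0.48, and the others were lower. Their values were then 0.85 for Ifi203, 0.78 for Mndal, 0.53 for Ifi204, 0.73 for Pydc4, 0.63 for Pydc3 and 0.60 for Mnda. Pyhin1 thus no longer stood apart.

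Sensors and the inflammasome, with which PYHIN proteins act, were described in the same way. Of 19 tested genes of cytosolic nucleic acid sensing and STING signalling 12 were above 0 and 7 below (median 0.10), among them Samhd1, a deoxynucleotide hydrolase (difference 0.10), Ddx58, the RNA sensor RIG-I (0.56), Eif2ak2, the kinase PKR (0.26), and Adar, an RNA-editing enzyme (0.20). Of 11 tested genes of the inflammasome and pyroptosis 4 were above and 7 below 0 (median -0.30). The most abundant of these were Casp4, an inflammatory caspase (0.29), Casp8 (-0.03), Ninj1, which ruptures the membrane of dying cells (0.07), and Nek7, a partner of Nlrp3 (-0.30). No gene of either list was called. Pyhin1 was the member most like the mean of the inflammasome list (r = 0.74, and 0.79 without the 3 libraries lowest in Pecam1), while Aim2 reached 0.35.

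Of 18 tested receptors and regulators of interferon signalling 11 were above 0 and 7 below (median 0.09). Irf1, a transcription factor, had a difference of 0.19, Socs3, a feedback inhibitor, 0.06 and the kinase Jak1 -0.08. Of 20 genes of the interferon-gamma response 17 were above 0 and 3 below (median 0.20). Gbp4, a guanylate-binding protein, stood at 678 ± 402 TPM in KO and 357 ± 191 TPM in WT (SD, n = 10 and 11; difference 0.72), and Iigp1, an immunity-related GTPase, at 0.22, with the chemokine Cxcl9 at 0.12 and Gbp2 at 0.15. None of these genes was called either. Some genes, such as Ddx58, stand on more than 1 list.

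Next to the members, 6 of 10 listed genes of the cluster and its flanks that are in the table were tested, 2 above and 4 below 0, and none called. Gm4955, named Ifi206 and matching the Pydc4 promoter stretch at 59 of 60 bases, averaged 59.5 ± 27.0 TPM over the 10 KO libraries and 38.5 ± 21.4 TPM over the 11 WT libraries (± SD), a difference of 0.49. Gm16340, a pseudogene of Ifi203, stood at 67.1 ± 37.8 and 40.9 ± 23.4 TPM (difference 0.56). In experiment 4 the differences of Gm4955 and Gm16340 were -0.25 and -0.08. Below 0 were also genes of the cluster that hold the response element core. Ifi205 averaged 5.08 ± 3.32 TPM in KO and 11.3 ± 19.5 TPM in WT (difference -0.54). AI607873, named Ifi207, averaged 10.2 ± 4.16 and 12.3 ± 11.2 TPM (-0.13). Ackr1, a chemokine receptor of venules that flanks the cluster, had a difference of -0.37, and Cadm3, a cell adhesion molecule, -0.88. Gm4955, Gm16340 and Ackr1 passed the test between experiments (limma adjusted p = 0.00943, 0.0234 and 0.0433), 3 of the 6 tested, against 29.1% of all genes.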

How the data were processed

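Total RNA of CD31-positive cells sorted from tumours was sequenced after ribosomal depletion, with 30 ng RNA going into each stranded library and paired reads of 150 bases, per the labels' protocols. Values are TPM as the authors computed and deposited them, on build GRCm38 per the submitters' processing notes; how reads were aligned and counted is not given in the sources used here. Depth cannot be had from TPM, and how many reads stand behind a value is unknown.

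Values were read as deposited, with decimal commas, for 21 columns assigned by header; 2 columns with 1 header were both taken as KO of experiment 2, and no column names KO replicate 3 of experiment 4. Genes that reached 1 TPM in 10 or more libraries were fitted as log2(TPM + 1) with limma 3.58.1 (statmod 1.5.0, R 4.3.3; trended, robust prior, terms for genotype and experiment), and p-values were adjusted by Benjamini-Hochberg over all 13503 genes at a threshold of 0.05. The script was tested on simulated data. The pseudocount can shift the difference of a low gene: with 0.1 in place of 1 it was 0.79 in place of 0.43 for Pyhin1 and -0.63 in place of -0.77 for Aim2. Coordinates are from GENCODE for GRCm38 and promoters from RefSeq for GRCm38.p6; motifs were searched on both strands and figures drawn in Python.

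The members and the gene lists were chosen with earlier results of these data known. Genes named are all members, the 6 most like Pydc4 and the 6 most like Ifi204 (predicted gene models left out), the most abundant 4 of each pathway list and 2 of each cell type list described, and Shb and Pecam1; 1 gene that this rule names is not reported here. In addition, BC094916 was named after its sequence was seen. Epcam, Krt18, Krt19, Krt7, Cd3e, Flt3, Ifi205 and AI607873 were named to set other genes of their lists beside those the rule names. Alternatives were another pseudocount, filter, scaling or prior, libraries or experiments left out, marker covariates, and another place for the 2 columns.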

Additional observations from a re-analysis of the deposited data

Results flagged for a closer look

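Among 16 groups of values, 1 held a library far from the rest. The groups were, for each of the 8 genes, all 10 KO libraries and the 4 KO libraries of experiment 2. WT values were not checked in this way, as the check took groups of 4 to 10 libraries. Mndal stood at 72.4 TPM in KO replicate 2 of experiment 4, while the other 9 KO libraries held 188 to 292 TPM; its gap to the nearest was 0.527 of the whole range, above the critical value of 0.466. This library was the second lowest in Pecam1, at 242 TPM. Chance flags about 1 in 20 groups.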

How the results depend on the processing

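The fitted differences between KO and WT kept their sign in all 40 alternatives for Pydc4 (0.73 to 1.07), Pydc3 (0.61 to 0.96), Pyhin1 (0.16 to 0.96), Ifi203 (0.04 to 0.73), Ifi204 (0.19 to 0.65), Mndal (0.15 to 0.68) and Aim2 (-1.18 to -0.39), near 0 at the low end for Ifi203; that of Mnda, 0.08, was above 0 in 36 of 40, and lowest, at -0.10, without experiment 2. Genes called between KO and WT numbered 2 in place of 1 with a common median or quantile normalization, with 1 member among them, Pydc4, for which this is no independent test since it was picked on this contrast, and 0 without experiment 1 or without experiment 2. Replicate numbers showed no pairing in experiments 1 to 3: of 10 pairs, 2 had a correlation of deviations over 0.1 (-0.20 to 0.36). Both were in experiment 4 (0.32 and 0.36), where replicate 2 of WT and of KO were the libraries lowest in Pecam1. The pairs of experiment 3, with 2 libraries per genotype, repeat 1 value (-0.20). The fit with the replicate block called 0 genes, with a Pydc4 difference of 0.95. Genes called between experiments, 3931, numbered 2529 with no filter, 2496 with a common median, 4 without experiment 2, 1715 without experiment 4, 1847 without the 3 libraries lowest in Pecam1, 2339 with column 3a placed in experiment 4, and 28 in WT alone. Members called between experiments, 1, numbered 2 with a filter of 5 TPM, with a common median, with quantile normalization, without experiment 1, or without both shared-header columns, and 0 without experiment 2 or in WT alone. Leaving out 1 library at a time gave 1 to 1 genes and 0 to 0 members called between KO and WT, and 2335 to 5015 genes and 1 to 3 members called between experiments, with 2335 without KO replicate 2 of experiment 4, 2590 without WT replicate 3 of experiment 2 and 3 members without WT replicate 2 of experiment 1 or WT replicate 3 of experiment 4. A common median moved the median difference of all genes from -0.11 to -0.01. The cause of these changes was not tested. Alternatives that left out libraries or experiments also had fewer samples, and a stricter filter fewer genes.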
